A study of Mus musculus with 8 samples.

Results

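The liver signal of 10 genes was far apart between animals of different genotype, and each of their probes was followed by itself: Tpmt, A2ml1, Casp9, Prm1, Olig1, Obp2a, Hbb-b2, Dnaic1, Nudt6 and Asic5. They were picked by name because at least 1 probe was high in some livers and low in others on these same arrays, so their liver values are a description and were not tested. The array carries 25608 probes for 16559 annotated genes, and 14 of these probes belong to the 10 genes. A2ml1 and Dnaic1 have 2 probes each, Casp9 has 3, and the other 7 genes have 1. They were measured on 8 Illumina MouseRef-8 v2 bead arrays, 1 for each combination of sample type and genotype.

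The livers came from mice aged 2 months that were Dnmt2-/-, Nsun2-/-, double knockout for both genes, or wild type. The mouse embryonic fibroblasts (MEFs) had the same 4 genotypes, were made from embryos of day 13.5, immortalized by SV40 large-T, and taken at passage 9. Dnmt2, whose current symbol is Trdmt1, and Nsun2 encode enzymes that methylate cytosines in transfer RNA. All 8 samples carry the strain label CBA/C57BL6j x B6;129, a mixed background. With 1 array per group there was no replicate, the number of arrays limited the precision, and genotype, animal, litter and strain alleles cannot be told apart. No p-value was computed.

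Probes with a detection p-value under 0.01 count as detected. Between 11585 and 11688 probes were detected per liver and between 13019 and 13409 per MEF sample. Of 12 hepatocyte markers 11 were detected in a liver, none with a 4-fold range over the livers (all probes 0.815%). Of 9 fibroblast markers 8 were detected in each MEF sample. The Nsun2 probe was not detected in the Dnmt2-/- (log2 signal 4.41), Nsun2-/- (4.10) and double knockout livers (4.19), and was detected in the wild-type liver (5.35). In MEFs it was detected in the Dnmt2-/- sample (5.14), not in the Nsun2-/- (4.33) or double knockout sample (4.22), and in wild type (5.36). In liver this signal was so near background that it does not separate the Dnmt2-/- sample from those lacking Nsun2. All 4 Trdmt1 probes were undetected in every liver. The brightest was detected in the Dnmt2-/- (5.09) and double knockout MEFs (4.64), and not in the Nsun2-/- (4.40) or wild-type MEFs (4.51). Their place relative to the deletion is unstated in the sources at hand, so they do not check the labels.

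A transcript can be present in one mouse liver and missing in another for reasons unrelated to a targeted gene, because inbred strains carry different alleles. C57BL/6 mice carry the beta-globin genes Hbb-bs and Hbb-bt, whereas other strains carry a haplotype with Hbb-b1 and Hbb-b2. Liver activity of Tpmt, the enzyme that methylates thiopurine drugs, is also known to vary between inbred strains. Several of the other genes are best known outside the liver: Prm1 packs DNA in sperm heads, Olig1 is a transcription factor of oligodendrocytes, and Dnaic1 is a dynein chain of motile cilia. Asic5 is a sodium channel subunit.

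A liver counted as high for a probe when the probe was detected there and its signal was above the midpoint between the highest and the lowest liver. By this reading Tpmt and A2ml1 were high in the Nsun2-/- and double knockout livers, and Casp9, Prm1 and Olig1 were high in the Dnmt2-/- and wild-type livers. The promoter windows of 4 of these genes are shown because each pair moved together over the same livers, in opposite directions between the pairs. The windows run from 250 bases before to 50 bases after the RefSeq gene start on GRCm38.p6, at chr13:47043168-47043467 (minus strand) for Tpmt, chr6:128581557-128581856 (minus) for A2ml1, chr4:141793362-141793661 (plus) for Casp9 and chr16:10796774-10797073 (minus) for Prm1. Capitals mark matches, on either strand, to the TATA box TATAAA, the CCAAT box CCAAT, the GC box GGGCGG, the cyclic AMP response element TGACGTCA and the STAT5 element TTCNNNGAA.
Tpmt: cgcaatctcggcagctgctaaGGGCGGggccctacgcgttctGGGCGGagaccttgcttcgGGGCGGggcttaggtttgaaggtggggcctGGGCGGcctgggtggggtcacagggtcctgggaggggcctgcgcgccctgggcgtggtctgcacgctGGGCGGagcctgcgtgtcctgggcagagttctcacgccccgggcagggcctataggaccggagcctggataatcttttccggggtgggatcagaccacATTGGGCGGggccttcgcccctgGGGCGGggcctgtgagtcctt
A2ml1: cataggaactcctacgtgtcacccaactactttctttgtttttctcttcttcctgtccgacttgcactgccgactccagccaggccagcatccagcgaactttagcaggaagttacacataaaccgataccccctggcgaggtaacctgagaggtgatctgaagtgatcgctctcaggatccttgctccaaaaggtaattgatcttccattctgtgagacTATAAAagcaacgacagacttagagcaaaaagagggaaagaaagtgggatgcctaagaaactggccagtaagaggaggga
Casp9: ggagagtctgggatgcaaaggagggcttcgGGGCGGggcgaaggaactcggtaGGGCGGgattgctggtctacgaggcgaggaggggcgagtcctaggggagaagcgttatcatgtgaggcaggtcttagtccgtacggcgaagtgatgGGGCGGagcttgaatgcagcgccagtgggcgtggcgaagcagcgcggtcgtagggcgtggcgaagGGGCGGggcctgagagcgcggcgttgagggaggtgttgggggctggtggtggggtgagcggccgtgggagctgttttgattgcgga
Prm1: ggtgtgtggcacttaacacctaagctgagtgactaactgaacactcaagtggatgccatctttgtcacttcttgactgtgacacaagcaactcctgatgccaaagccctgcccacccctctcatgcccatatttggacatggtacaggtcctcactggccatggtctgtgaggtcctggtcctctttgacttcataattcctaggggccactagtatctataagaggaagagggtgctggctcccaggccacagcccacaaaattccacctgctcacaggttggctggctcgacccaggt

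Genes with the same high livers had windows of different composition. Tpmt held 7 GC boxes and 1 CCAAT box that overlapped a GC box, with 69.7% GC and 22 CpG dinucleotides. A2ml1 held 1 TATA box, with 47.7% GC and 8 CpG. Casp9 held 4 GC boxes, with 66.0% GC and 28 CpG, whereas Prm1 held no match, with 52.7% GC and 1 CpG. Over all 32851 windows of the table the median was 52.7% GC and 7 CpG. A GC box was found in 35.7% of them, a CCAAT box in 37.4% and a TATA box in 13.6%. The cyclic AMP response element and the STAT5 element occurred in 1.79% and 8.30% of all windows and in none of the 8 windows available for the 10 genes.

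Of the 14 probes, 13 were detected in at least 1 liver and 1 probe of Casp9 in none.  A strict on-off difference was defined as a highest liver that was detected, a lowest liver that was not, and at least 2 log2 units (4-fold) between them. It was met by 6 probes of 6 genes (Casp9, Prm1, Olig1, Hbb-b2, Dnaic1 and Asic5), against 51 of the 13985 probes detected in a liver (0.365%). Prm1 was the 1 of the 6 that also met it without background correction and with the authors' values, and Olig1 did not meet it at a detection limit of 0.05, since its p-value in the Nsun2-/- liver was 0.0223. The other 4 genes, Tpmt, A2ml1, Obp2a and Nudt6, were detected in all 4 livers, so their low livers were low and not off. When the lowest liver was allowed to be detected, 11 probes covering all 10 genes met the rule, against 114 of 13985 (0.815%). The choice of genes rests on these values, so the shares are given as background only. Just inside the strict rule lay Lrp6, Erp27 and Gmds, with a liver range of 2.03, 2.03 and 2.05, and just outside it Tcte3 and Figla, with 1.97 and 1.95 (log2).

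**Figure D1:**
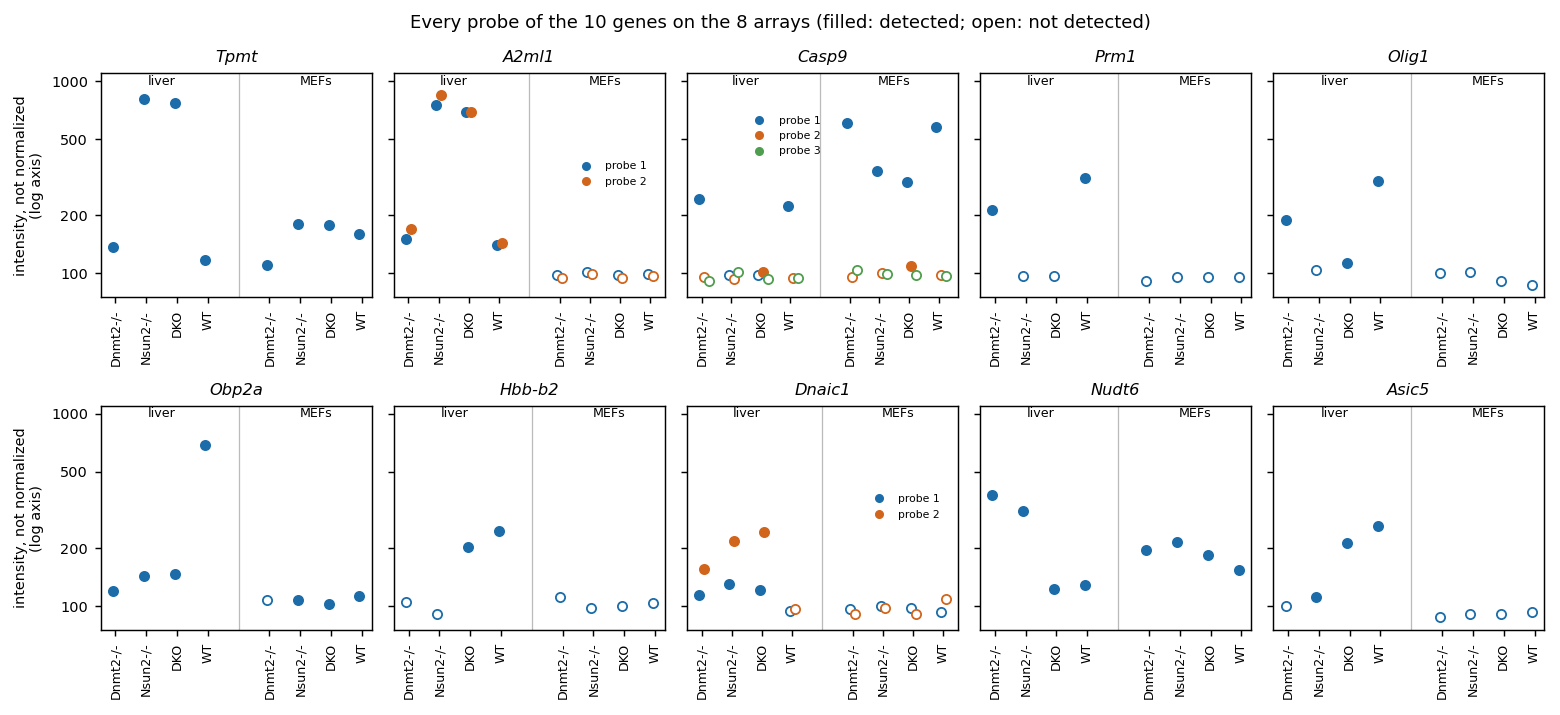
Intensity before normalization (arbitrary units, log axis) of each of the 14 probes on the 8 arrays, with livers left and MEFs right of the grey line, filled points detected and open points not detected. The liver signal of Tpmt is 811 and 768 in the Nsun2-/- and double knockout samples, and the other 2 probes of Casp9 stay near background where its first probe is high.

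Tpmt and both probes of A2ml1 were high in the Nsun2-/- and double knockout livers. Tpmt had an intensity of 137 in the Dnmt2-/- liver, 811 in the Nsun2-/- liver and 768 in the double knockout liver, against 118 in the wild-type liver. The 2 high livers lay within 1.05-fold of each other after normalization, and no value of the 2 low livers came near them. On the log2 scale the differences from wild type were 0.47, 4.11 and 4.04 in the Dnmt2-/-, Nsun2-/- and double knockout livers, or 1.38-, 17.2- and 16.4-fold higher. The size of every fold given here depends on the background correction, and "at least" covers an undetected array under this correction only. It is a convention and not a strict lower bound, since undetected probes can lie above the value used. Over the 28 differences of 2-fold or more from wild type, the median fold was 9.34, against 3.42 without correction and 3.36 with the authors' values. Since these are whole livers, fewer cells with a transcript and less of it per cell cannot be told apart, here and below.

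In MEFs Tpmt was detected in all 4 genotypes, and the same 2 genotypes were highest by a far smaller margin. Its intensity was 110 in Dnmt2-/-, 181 in Nsun2-/-, 178 in double knockout and 160 in wild-type MEFs. The Nsun2-/- and double knockout MEFs differed from wild type by 0.36 and 0.32 (log2), while the Dnmt2-/- MEFs differed by -1.24, or 2.36-fold lower. The Dnmt2-/- sample was thus the one that stood apart in MEFs, which was not so in liver.

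A2ml1 encodes a protein of the alpha-2-macroglobulin family of protease inhibitors. Its first probe (ILMN_2531773) read 151 in the Dnmt2-/- liver, 755 in the Nsun2-/- liver and 688 in the double knockout liver, against 141 in the wild-type liver. The second probe (ILMN_2984219) read 171, 846, 694 and 144 in the same livers and order. Both probes therefore ordered the 4 livers alike. Relative to wild type they were 9.57- and 10.2-fold higher in the Nsun2-/- liver and 8.72- and 8.33-fold higher in the double knockout liver. The Dnmt2-/- liver was within 1.27-fold of wild type on both. Neither probe was detected in any MEF.

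The relatives of these genes were read beside them. Of 12 other methyltransferases and methyl-donor enzymes measured, 10 were detected in a liver and 0 had a range of 4-fold. Here and below, a count of 0 among so few genes is no finding at the 0.815% of all probes. Nnmt, which methylates nicotinamide, had a log2 signal of 10.28 in Dnmt2-/-, 10.72 in Nsun2-/- and 11.57 in double knockout livers, against 11.63 in wild type. Ahcy, which clears the by-product of methylation, had 8.31, 8.67 and 8.88, against 9.57. These were the 2 of 10 compared that were at least 2-fold below wild type in the Dnmt2-/- liver (all probes 1.73%). None of the list was 2-fold apart in the Nsun2-/- (all probes 3.98%) or double knockout liver (4.33%). Nothing is read from so few genes. Among 4 detected relatives of A2ml1, Mug2 had a 4-fold range (all probes 0.815%). Mug2 had log2 signals of 9.64, 12.11 and 11.95 in the Dnmt2-/-, Nsun2-/- and double knockout livers and 11.51 in wild type. Its low liver was Dnmt2-/- alone, and a second Mug2 probe had the same low liver, while the remaining one was detected in none.

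Among all probes, 12 probes of 10 genes had their high livers in the Nsun2-/- and double knockout animals. The gene outside the 10 most like both Tpmt and A2ml1 was Cish, a feedback inhibitor of cytokine signalling. Its 4 liver values differed from those of Tpmt and A2ml1 by a root mean square of 0.53 and 0.14 log2 units after each was centred on its mean. Cish had 7.47, 10.51 and 9.97 in the Dnmt2-/-, Nsun2-/- and double knockout livers, against 7.32 in wild type. The next was Apcs, which encodes serum amyloid P, with 9.48, 11.29 and 11.50, against 9.52.

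Casp9, Prm1 and Olig1 showed the opposite split, high in the Dnmt2-/- and wild-type livers. Casp9, the initiator caspase of the mitochondrial death pathway, read 243 in the Dnmt2-/- liver on its first probe (ILMN_1217061), 98.4 in the Nsun2-/- liver and 98 in the double knockout liver, against 223 in wild type. It was not detected in the Nsun2-/- and double knockout livers. The log2 differences from wild type were 0.02, -3.41 and -3.32, which for the undetected livers is at least 9.50-fold and at least 9.79-fold lower.

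The other 2 probes of Casp9 did not show this. One (ILMN_2674731) read 95.6, 93.3 and 102 in the Dnmt2-/-, Nsun2-/- and double knockout livers, against 94.5 in wild type, and was detected in the double knockout liver only. The other (ILMN_2758139) read 90.6, 102 and 93.0, against 94.8, and was detected in no liver. Neither rose above background in the livers where the first probe was high, so they neither repeat nor contradict its split. The 3 probes are annotated to the same RefSeq transcript, and where in it each one lies is unstated in the sources at hand.

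The first Casp9 probe was detected in all 4 MEFs, in a related order. It read 604 in Dnmt2-/-, 343 in Nsun2-/- and 297 in double knockout MEFs, against 578 in wild-type MEFs. The differences from wild type were 0.05, -0.83 and -1.12 (log2), so the double knockout MEFs were 2.18-fold lower and the Nsun2-/- MEFs 1.78-fold lower. MEFs were not used to choose the genes, and here the Dnmt2-/- and wild-type samples were again the 2 highest, without the fall to background seen in liver. Of 17 other caspase and mitochondrial death genes measured, 14 were detected in a liver and 0 had a 4-fold range (all probes 0.815%). Apaf1, the partner that activates Casp9, had 6.29, 6.45 and 6.51 in the knockout livers in the order Dnmt2-/-, Nsun2-/- and double knockout, against 5.99. Casp4, an inflammatory caspase, was the single list member 2-fold apart in any knockout liver, with 4.46, 5.16 and 5.38, against 4.24.

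Prm1, protamine 1, read 214 in the Dnmt2-/- liver, 96.8 in the Nsun2-/- liver and 96.7 in the double knockout liver, against 311 in the wild-type liver. It was detected in the Dnmt2-/- and wild-type livers and in no other sample, MEFs included. The log2 difference was -0.89 in the Dnmt2-/- liver, and the signal was at least 15-fold lower in the Nsun2-/- and at least 15.4-fold lower in the double knockout liver. Without background correction the differences were -0.67, -2.13 and -2.10 log2 units in the Dnmt2-/-, Nsun2-/- and double knockout livers.

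Other spermatid genes were measured in the same livers at lower signal. Of 14 on the array besides Prm1, 7 were detected in a liver: 3 in the Dnmt2-/-, 1 in the Nsun2-/-, 2 in the double knockout and 6 in the wild-type liver. In the Nsun2-/- liver 4 of 6 compared were at least 2-fold below wild type, and in the double knockout liver 4 of 7, against 2.08% and 2.15% of all probes compared. In the Dnmt2-/- liver it was 1 of 6 (Ldhc), against 1.73%. Genes were counted on the probe with the highest mean signal, and the other 2 Ldhc probes were less than 2-fold below wild type in the Dnmt2-/- liver. Akap4, Ldhc, Odf1 and Tnp1 were the 4 in both. The median difference of the list was -0.76, -1.14 and -1.03 log2 units in the Dnmt2-/-, Nsun2-/- and double knockout livers, against 0.000888, 0 and -0.00149 over all probes compared. A gene was compared when detected on at least 1 of the 2 arrays, and most of these weak genes entered through the wild-type array. Lower values in the knockouts were thus favoured by this choice, and nothing is read from these shares and medians. Tnp1, a transition protein that precedes the protamines, had 5.36, 4.50 and 4.39 in the Dnmt2-/-, Nsun2-/- and double knockout livers, against 6.20 in wild type. Ldhc, the germ cell lactate dehydrogenase, had 6.08, 4.20 and 4.09 on the on-off probe with the high livers of Prm1, against 6.60. By that probe it was the gene most like Casp9, Prm1 and Olig1, at 0.62, 0.75 and 0.45 log2 units. Another Ldhc probe was likewise detected in the Dnmt2-/- and wild-type livers only. The last also met the on-off rule but was detected in wild type only, with 4.70, 5.04 and 4.19, against 6.32. The levels summed over the 14 genes were 352, 327 and 316 in the Dnmt2-/-, Nsun2-/- and double knockout livers, against 481 in the wild-type liver. Whether RNA from germ cells contributed was not tested.

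**Figure D2:**
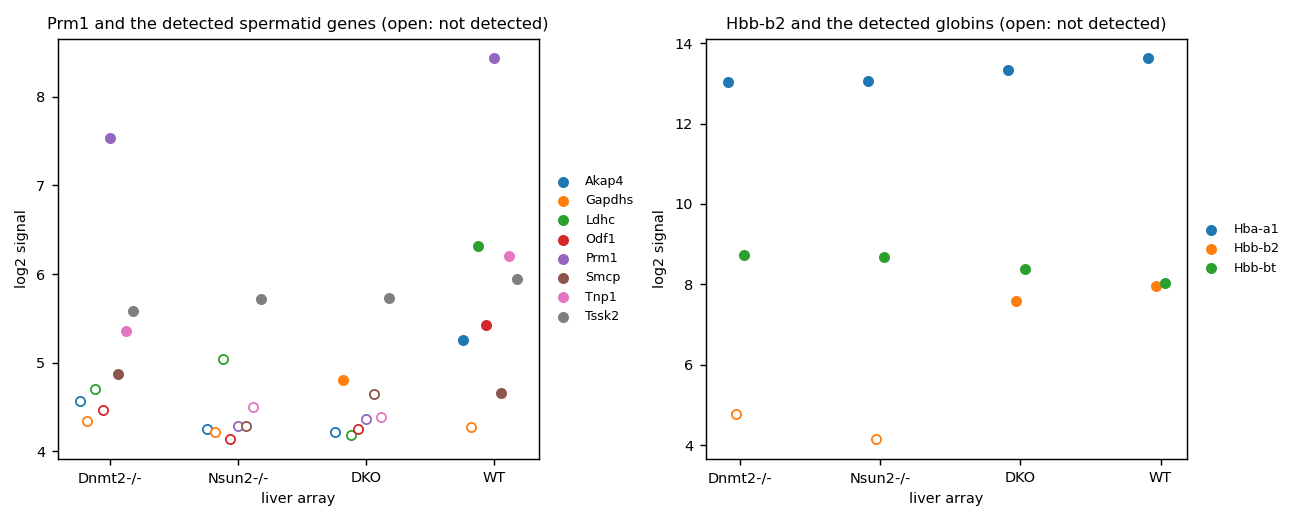
Log2 signal on the 4 liver arrays of Prm1 and the detected spermatid genes (left) and of Hbb-b2 and the detected globins (right), with open points not detected. Prm1 and Tnp1 are detected in the Dnmt2-/- and wild-type livers, and Hba-a1 lies between 13.03 and 13.62 in all livers while Hbb-b2 is undetected in the Dnmt2-/- and Nsun2-/- livers.

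Olig1 followed the same split with a graded low side. It read 190 in the Dnmt2-/- liver, 104 in the Nsun2-/- liver and 113 in the double knockout liver, against 302 in the wild-type liver. It was not detected in the Nsun2-/- liver, where it was at least 12.3-fold lower than in wild type. It was detected in the double knockout liver, 7.09-fold lower, and was 2.18-fold lower in the Dnmt2-/- liver. No MEF had a detected signal. Of 9 other oligodendrocyte genes measured, 3 were detected in a liver (Cnp, Mag and Mbp). Of these 0 had a 4-fold range (all probes 0.815%), too few genes to read a lack of parallel from. Olig2 was in no liver.

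Obp2a, a lipocalin named for odorant binding, was high in the wild-type liver alone. It read 120 in the Dnmt2-/- liver, 143 in the Nsun2-/- liver and 148 in the double knockout liver, against 688 in the wild-type liver. All 3 knockout livers were detected and lay well below wild type, at 16-, 8.66- and 7.84-fold lower in that order. In MEFs it stayed near background, between 103 and 113 over the 4 arrays. Of 14 other lipocalins detected in a liver, Lcn2, an acute-phase protein, had a 4-fold range (all probes 0.815%), and nothing is read from 1 gene. Lcn2 had 6.86, 9.04 and 8.65 in the Dnmt2-/-, Nsun2-/- and double knockout livers, against 8.04. Its low liver was Dnmt2-/-, unlike that of Obp2a. The genes most like Obp2a were Crym, a thyroid hormone binding protein, at 0.45 log2 units and Tiam2, an exchange factor for Rac, at 0.74.

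Dnaic1 was the reverse, detected in all 3 knockout livers and not in wild type, on both of its probes. The brighter probe (ILMN_2744879) read 156 in the Dnmt2-/- liver, 219 in the Nsun2-/- liver and 244 in the double knockout liver, against 96.3 in the wild-type liver. The other (ILMN_2694884) read 114, 130 and 122, against 93.8. Both probes thus had the same livers detected, with the weaker probe closer to background. The folds over wild type were at least 4.69, 9.35 and 11 on the brighter probe in the order Dnmt2-/-, Nsun2-/- and double knockout, and at least 1.86, 3.22 and 2.74 on the other. Neither was detected in any MEF. Of 16 other motile cilia genes 3 were detected in a liver and 0 had a 4-fold range (all probes 0.815%). Foxj1, the main transcription factor of motile cilia, had 5.03, 5.48 and 5.84 in the knockout livers in that order, against 4.84 in wild type. No gene outside the 10 had a named probe with this pattern.

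Nudt6, Hbb-b2 and Asic5 split the livers across the 2 single knockouts and the other 2 genotypes. Nudt6, a Nudix hydrolase, read 380 in the Dnmt2-/- liver and 314 in the Nsun2-/- liver, whereas it read 123 in the double knockout liver and 128 in the wild-type liver. It was detected in all 4. Against wild type it was 5.47- and 4.70-fold higher in the single knockouts and 1.14-fold lower in the double knockout. In MEFs it read 195, 215 and 184 in Dnmt2-/-, Nsun2-/- and double knockout samples, against 155 in wild type, with no MEF 2-fold apart from wild type. Of 20 other genes of the Nudix list, which includes Fgf2, 17 were detected in a liver and 0 had a 4-fold range (all probes 0.815%). Fgf2, the growth factor gene that lies next to Nudt6 and overlaps it on the opposite strand, was detected in no liver, with log2 signals from 4.09 to 4.14. The genes most like Nudt6 were Paip1, a translation factor, at 0.13 log2 units and Selenbp2, a selenium-binding protein, at 0.17.

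Hbb-b2, an adult beta-globin, was detected in the double knockout and wild-type livers only. It read 105 in the Dnmt2-/- liver, 91.0 in the Nsun2-/- liver and 204 in the double knockout liver, against 246 in the wild-type liver. The 2 single knockouts were at least 9.12- and at least 10.9-fold below wild type, and the double knockout was 1.31-fold lower. Globin genes are near-identical copies, so signal of a relative on this probe cannot be set aside. Of 5 other globins measured, 2 were detected in a liver. Hba-a1, an adult alpha-globin, had 13.03, 13.06 and 13.32 in the Dnmt2-/-, Nsun2-/- and double knockout livers, against 13.62 in wild type. Hbb-bt, of the C57BL/6 haplotype, had 8.73, 8.67 and 8.38, against 8.04. Hbb-bt was thus detected in all livers and was highest in the 2 where Hbb-b2 was not detected, at a range of 0.69. Alas2, which starts haem synthesis in red cell precursors, had 10.21, 9.89 and 9.73, against 10.12. None of the 7 erythroid genes detected, Alas2 included, had a 4-fold range (all probes 0.815%). Slc4a1 was detected in the Dnmt2-/- and double knockout livers only, at a range of 1.54. The summed level of the erythroid list was 1666, 1513 and 1449 in the knockout livers in that order, against 1732.

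Asic5 had the same high livers as Hbb-b2. It read 99.6 in the Dnmt2-/- liver, 111 in the Nsun2-/- liver and 212 in the double knockout liver, against 260 in the wild-type liver. It was not detected in the Dnmt2-/- liver, at least 11.9-fold below wild type, and 6.84-fold lower in the Nsun2-/- liver. No MEF had a detected signal for either gene. Of the 7 related acid-sensing and epithelial sodium channel genes, Scnn1a alone was detected in a liver, with a range of 0.21. The gene most like both was Tmod4, an actin-capping protein of muscle, at 0.70 log2 units from Hbb-b2 and 0.59 from Asic5.

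**Figure D3:**
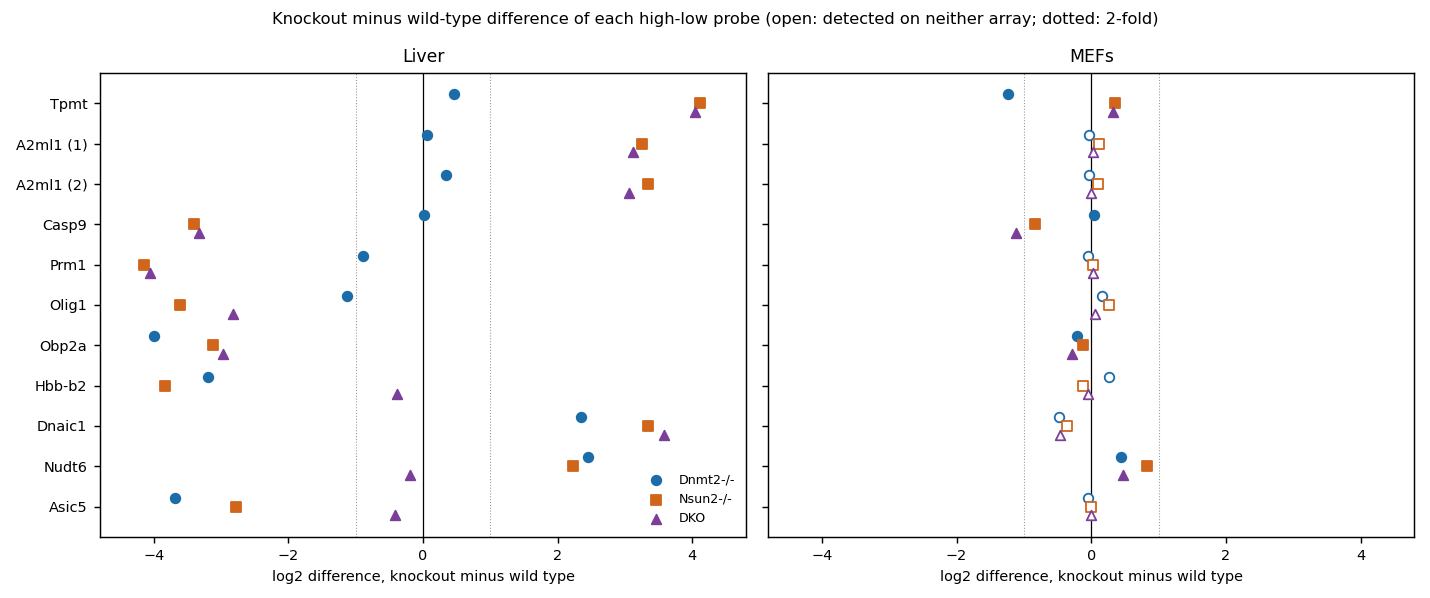
Log2 difference of each knockout from wild type in liver (left) and MEFs (right) for the 11 probes that cover the 10 genes, with open symbols where neither array detected the probe and dotted lines at 2-fold. The liver differences reach 4.11 and -4.14, whereas the 2 MEF differences past 2-fold are Tpmt in Dnmt2-/- MEFs and Casp9 in double knockout MEFs.

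Counted over all 14 probes, the liver differences from wild type at 2-fold were 7 of 12 compared in the Dnmt2-/- liver (all probes 3.25%), of which 3 were higher and 4 lower. They were 12 of 12 in the Nsun2-/- liver (3.98%), 6 in each direction, and 9 of 13 in the double knockout liver (4.33%), 5 higher and 4 lower. These 3 comparisons share the wild-type array and were used to pick the genes, so nothing is read from their size. The median liver range of the 13 detected probes was 3.58 log2 units, against 0.50 over all 13985. In MEFs few of the probes were detected. At 2-fold, 1 of 4 compared was past the limit in Dnmt2-/- (3.36%), 0 of 4 in Nsun2-/- (2.47%) and 1 of 5 in double knockout MEFs (6.33%). The MEF values of 3 probes (Tpmt, Nudt6 and the first Casp9 probe) were detected in all 4 genotypes, and 9 probes were detected in none.

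The double knockout liver can be set against each single knockout. Relative to the Nsun2-/- liver 3 of 11 probes compared were 2-fold apart (all probes 3.97%): Hbb-b2 and Asic5 were higher and Nudt6 was lower in the double knockout. Relative to the Dnmt2-/- liver it was 11 of 13 (4.71%). The genes were picked on these same livers, so nothing is read from these shares. Between the double knockout and Nsun2-/- livers, which both lack Nsun2, the probes of Tpmt, A2ml1, Obp2a and Dnaic1 were within 1.22-fold, and Prm1 and the first Casp9 probe were detected in neither. The Casp9 probe detected in the double knockout liver alone was at least 1.17-fold higher there, and Olig1 at least 1.73-fold higher. For Nudt6, Hbb-b2 and Asic5 the double knockout lay within 1.34-fold of wild type.

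The high livers of the 10 genes took 6 forms, and these were part of a wider spread. The 114 probes with a 4-fold liver range showed all 14 ways of dividing 4 livers into high and low. Of them, 48 divided the livers 2 and 2, and 66 set 1 liver apart from the other 3. The most frequent form was the double knockout alone, with 15 probes, and none of the 10 genes had it. The form of Casp9, Prm1 and Olig1 held 13 probes of 12 genes, that of Tpmt and A2ml1 12 probes of 10 genes, and that of Nudt6 9 probes. The forms of Obp2a and of Hbb-b2 with Asic5 held 6 probes each, and that of Dnaic1 held 2.

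**Figure D4:**
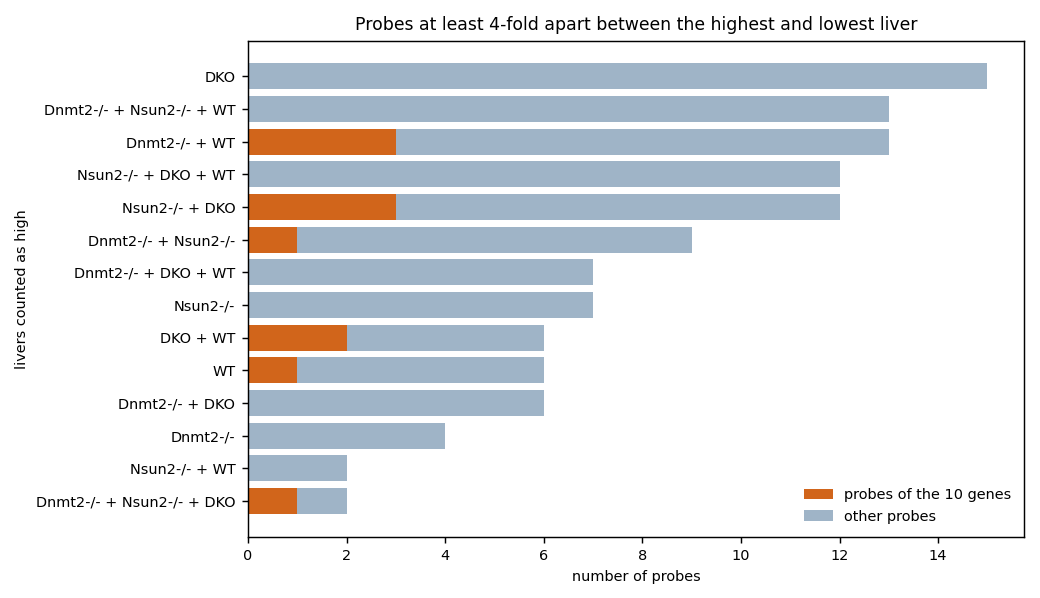
Number of probes with at least a 4-fold range over the livers, by which livers were high, with probes of the 10 genes in orange and all others in grey. The 114 probes fall into 14 forms, led by the double knockout alone (15 probes), and the 11 probes of the 10 genes lie in 6 of them.

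How often further probes of a gene repeat a liver split was counted over all genes. Of 43 genes with a strict on-off probe, 17 had a further probe. A further probe had the same high livers by the same rule in 1 of the 17 and was in no liver in 4. In the other 12 a further probe was detected in a liver, but none met the rule with the same high livers. With the lowest liver allowed to be detected, 32 of 94 genes had a further probe. It repeated the split in 6, was in no liver in 6, and was detected without meeting the rule in that way in 20. A2ml1 is 1 of the 6 that repeated it. Dnaic1 is not counted there, since its weaker probe had a range of 1.92, short of the rule, though with the same high livers. The 12 and the 20 thus hold probes of unlike kinds. Dnaic1 is among them, and so is Casp9, whose other detected probe was near background. For the 7 genes with a single probe this check was not possible.

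For the wider set, the liver splits were also read in MEFs at 2-fold. Of the 114 probes, 81 were detected in at least 1 MEF and 64 in all 4. In 1 of the 81 the MEFs of the high genotypes were all at least 2-fold above all the others. This rule is stricter than the liver rule, and its share over all probes was not counted. No lack of mirroring is read from it. For the form of Tpmt and A2ml1 the median MEF difference of the same genotypes was -0.10 over 9 probes, and for that of Casp9, Prm1 and Olig1 it was -0.09 over 9 probes (log2). For the form of Obp2a it was 0.27 over 5 probes, all 5 higher in wild type. For that of Hbb-b2 and Asic5 it was -0.52 over 3 probes, 0 of them higher in the same genotypes.

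A stretch of chromosome from another strain can carry several altered neighbours, so the genes next to each of the 10 were read. Of these, 9 have a place on the primary chromosomes: Tpmt on 13, A2ml1 on 6, Casp9 and Dnaic1 on 4, Prm1 and Olig1 on 16, Obp2a on 2, and Nudt6 and Asic5 on 3. Hbb-b2 is placed on an alternate locus in RefSeq. Among the 10 RefSeq genes on each side of the 9, 70 genes were measured and 36 were detected in a liver by 46 probes. None had a 4-fold range, which at the 0.815% of all probes is no finding about the neighbours. Their ranges ran from 0.10 to 1.12 log2 units with a median of 0.56, close to the 0.50 of all probes.

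The neighbours with the widest ranges were small beside the genes themselves. Slc25a34, a mitochondrial carrier near Casp9, had 5.40, 4.62 and 4.47 in the Dnmt2-/-, Nsun2-/- and double knockout livers, against 5.60 in wild type. These are the high livers of Casp9, at a range of 1.12. Clec16a near Prm1 had 4.81, 5.44 and 5.88, against 5.79, which is not the order of Prm1. Bbs12 near Nudt6 had 4.26, 4.42 and 5.22, against 4.18, and Kif13a near Tpmt had 4.68, 4.37 and 5.37, against 4.41. Both were high in the double knockout alone, unlike the gene they neighbour. Of the genes directly beside one of the 9, 4 were detected. Cela2a beside Casp9 was high in the Dnmt2-/- liver alone, at a range of 0.95. Nhlrc1 beside Tpmt had 5.82, 6.42 and 6.58, against 5.74, with the high livers of Tpmt at a range of 0.84. Dnajc16 beside Casp9 and Tdo2 beside Asic5 had ranges of 0.66 or less on every probe. Prm3 and Tnp2, close to Prm1 in the protamine cluster, were detected in no liver.

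**Figure D5:**
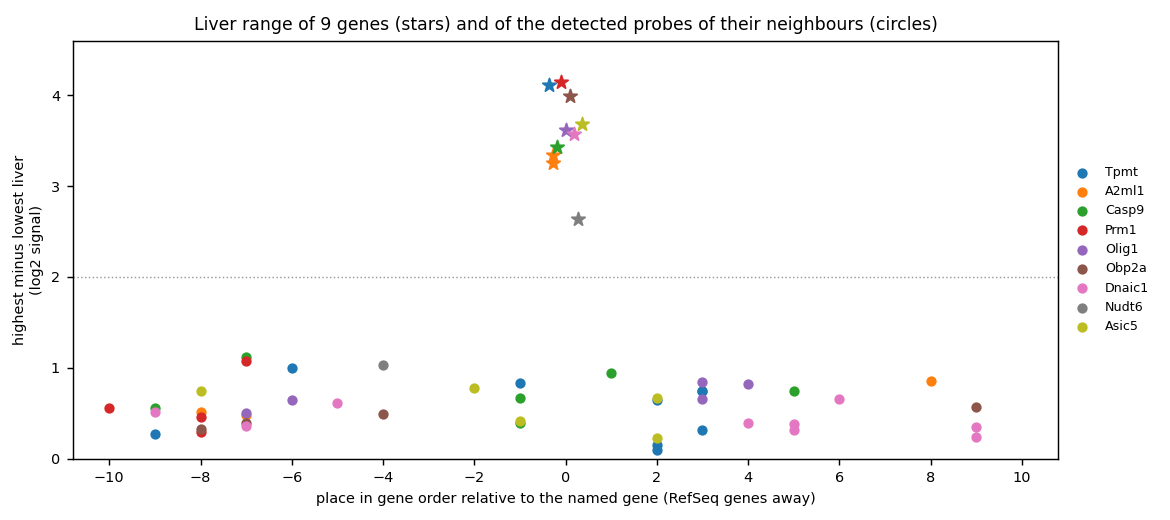
Highest minus lowest liver signal (log2) of the detected probes of neighbouring genes (circles), by place in RefSeq gene order relative to the named gene, with the genes themselves as stars near 0. All 46 neighbour probes lie at or below 1.12, under the dotted 4-fold line, and the stars lie between 2.64 and 4.14.

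Tpmt and Obp2a share a chromosome with a targeted gene. Tpmt lies on chromosome 13 with Nsun2, with 614 RefSeq genes between them, and Obp2a lies on chromosome 2 with Trdmt1, with 214 between them. Of the 10 genes with the form of Tpmt, 4 are on chromosome 13: Tpmt, Ctsl, Gadd45g and Cxcl14. Chromosome 13 holds 3.45% of the tested genes. On chromosome 3, which holds 4.84%, lie 4 of the 9 genes with the form of Nudt6: Nudt6, Selenbp2, Them4 and Sucnr1. Over every form, 8 of 340 tested genes of chromosome 13 had a 4-fold range (2.35%), and 11 of 477 of chromosome 3 (2.31%), against 93 of 9851 over all chromosomes (0.944%). These 2 chromosomes had the highest shares and are given for that reason, with no test. The 16 others with any such gene ran from 0.246% to 1.67%.

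Genes whose expression is known to differ between inbred strains were read beside these. Of 10 measured besides Hbb-b2, 5 were detected in a liver. Gbp2b, an interferon-induced guanylate-binding protein, had a 4-fold range (all probes 0.815%), and nothing is read from 1 gene. Gbp2b had 6.15, 7.58 and 8.16 in the Dnmt2-/-, Nsun2-/- and double knockout livers, against 6.65 in wild type. Its high livers were those of Tpmt. In MEFs it was detected in the Nsun2-/- sample alone, at 8.86. Glo1, Hc, Entpd4 and Ide had liver ranges of 0.18, 0.36, 0.63 and 0.28. Nnt, which C57BL/6J mice lack in functional form, was detected in no liver on any of its 3 probes. Ifi202b, which is expressed in some strains and silent in C57BL/6, was in no liver, but in wild-type MEFs 2 of its 3 probes had 7.01 and 6.66, against 4.56 and 4.16 in Dnmt2-/-, 4.70 and 4.08 in Nsun2-/- and 4.55 and 4.16 in double knockout MEFs. Gbp2b and Ifi202b, like Hbb-b2, were thus at least 4-fold apart between samples that carry 1 strain label. Which alleles each animal carried was not tested.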

How the data were processed

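Total RNA of 4 livers and 4 MEF samples was hybridized to bead arrays, 1 per genotype, per the labels. Trizol-extracted RNA was amplified to biotin-labelled cRNA, per the labels' protocols. The first deposited table gives a linear intensity for each probe and array, neither normalized nor background-subtracted, and, per the file headers, a detection p-value beside each. How that p-value was computed and how the authors normalized their second deposited table of intensities are not given in the sources used here. The authors' values ranked the probes as the first table did (rank correlation at least 0.999 on every array) and were linear and not centred by gene. Their medians were 107, 108, 108 and 108 in Dnmt2-/-, Nsun2-/-, double knockout and wild-type livers and 104, 104, 104 and 104 in MEFs in the same order. How these medians were brought alike stays unknown.

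Intensities were corrected with the normexp model of limma 3.58.1 (R 4.3.3), which inferred background through the detection p-values, with 16 as offset, then log2-transformed and quantile-normalized across the 8 arrays. Differences are tested genotype minus the other, over probes detected on at least 1 of both arrays, and count from 2-fold. For folds, an undetected value was raised to the array's lowest detected value where below it. That fold is written as at least that size under this background correction. The lowest detected value is not a detection limit, and undetected probes can lie above it. In the wild-type liver it was 4.49 (log2), while Bak1 was undetected at 5.04. The wording is thus a convention and not a strict lower bound. Counts use the values as normalized. Gene names came from the platform annotation (1 symbol for 23898 probes, several for 0, none for 1710), and 23882 probes matched RefSeq of GRCm38.p6 by entrez identifier. That table gave names, chromosomes and gene order, and the promoter windows came from RefSeq on the same assembly. The counting of splits recovered simulated switches that were set far past its limits. That checks the code and not the calls made on these arrays. Alternatives were no background correction, an offset of 50, median scaling, quantile normalization over the livers alone, the authors' values, a detection p-value of 0.05 and a 2-fold range.

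Named genes are the 10 genes, up to 2 genes most like each, and strain-dependent genes. Members of fixed lists that passed the limits or define the list were named too. Likeness was the root mean square difference of centred liver values. It was taken only among genes with a symbol that had the same high livers by the same rule. The neighbours with the widest ranges and those directly adjacent were named after their values were seen, as were the chromosome 13 and chromosome 3 genes. The 10 genes and all lists were chosen with earlier results of these data known.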

Additional observations from a re-analysis of the deposited data

How the results depend on the processing

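Each setting was changed by itself. Of the 37 liver differences of the 10 genes' probes from wild type, the 28 of at least 2-fold all kept their direction under every setting. The sign of the smaller differences was not checked. The size of the difference moved by over 1.5 times for 27 of the 37 without background correction and with the authors' values. With an offset of 50 it did so for 19. Fewer than 28 reached 2-fold in most settings: 23 without background correction and with the authors' values, 25 with an offset of 50, and 27 with median scaling and with quantile normalization of the livers alone. Counts over all probes depended strongly on how background was treated and also on the normalization. The shares over all probes given above hold for the reported setting only. Probes meeting the strict on-off rule numbered 51 as reported, 2 without background correction, 11 with an offset of 50, 24 with median scaling, 24 with the livers alone and 1 with the authors' values, and 1110 with a range of 2-fold. Of the 10 genes' probes 6 met it as reported, 1 (Prm1) without background correction and with the authors' values, and 5 (not Olig1) with detection at 0.05. Allowing the lowest liver to be detected, a rule chosen after seeing the data, gave 114 and 11. Probes 2-fold apart from wild type in the Dnmt2-/- liver numbered 414 as reported, and 45, 70, 168, 153 and 47 under no correction, offset 50, median scaling, livers alone and the authors' values. In the Nsun2-/- liver they were 61, 102, 209, 215 and 64, as reported 507, and in the double knockout liver 76, 110, 231, 240 and 74, as reported 552. The share of higher calls was 46.9% in the Dnmt2-/- liver, and 62.5% with median scaling. In the double knockout liver it was 50.4%, against 60.5% without correction and 62.2% with the authors' values. The smaller ranges without correction follow from the background left in the signals. The high livers were the same in 6 of 6 such settings for 10 of the 11 probes and in 5 of 6 for Dnaic1. The liver range of Casp9 fell to 1.59 at the lowest and that of Tpmt to 2.93. Detection at 0.05 left all counts within 1.5 times. No paired analysis was possible because each genotype has 1 sample and the labels give a single replicate number. Signal near background limits every value called low.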

Other observations

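Chosen after its values were seen, Abhd1, a gene of the alpha/beta hydrolase family, was a liver split that held over all of its 3 probes. Their log2 signals in the Nsun2-/- liver were 9.10, 7.87 and 7.95, while they were 5.94, 4.87 and 4.28 in the Dnmt2-/- liver, 6.25, 4.51 and 4.71 in the double knockout liver and 6.19, 4.85 and 4.39 in the wild-type liver. The Nsun2-/- liver was the high one on every probe. In MEFs 1 of the probes was detected, at 5.23 in Dnmt2-/-, 5.32 in Nsun2-/-, 5.67 in double knockout and 5.30 in wild-type samples, so that the Nsun2-/- MEFs did not stand apart. The widest liver range of any probe, 6.37 log2 units, was that of Mgst1, a microsomal glutathione transferase, also named after its values were seen. Its probe had 7.23 in the Dnmt2-/- liver, 13.60 in the Nsun2-/- liver and 12.84 in the double knockout liver, against 13.51 in the wild-type liver, and was detected in all 4 MEFs, at 8.07 in Dnmt2-/-, 8.62 in Nsun2-/-, 7.55 in double knockout and 7.77 in wild-type samples.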
